A study of Macaca mulatta with 15 samples.

Results

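EGR1, EGR2, EGR3, NR4A1, NR4A2, NR4A3, DUSP1, DUSP2, DUSP5 and DUSP6 are early response genes, and they were followed here through peripheral blood T cells of rhesus macaques given 2-hydroxypropyl-beta-cyclodextrin (Kleptose HBP), a sugar ring that carries cholesterol. The 10 genes were chosen by symbol among the 34884 genes of the count table, 1 row each, and comprise 3 EGR, 3 NR4A and 4 DUSP genes. The study's 15 RNA-seq libraries come from 2 healthy animals, RhDBCb and RhM22, each bled before treatment and again after it. The untreated groups are CD4+ naive, CD4+ memory, CD8+ naive and CD8+ memory T cells with 2 libraries each, 1 per animal. The treated groups are the same subsets after daily subcutaneous injection of 1 ml per kg of a 15% (w/w) solution over a period of at most 120 days, with 2 libraries each except CD8 naive cells, which were analysed in RhM22 alone. The labels give neither the day of the second bleed nor the way in which the subsets were separated. Each animal gave 1 draw per time and no untreated animal was bled on the same schedule, so treatment, elapsed time and chance among draws cannot be told apart.

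Early response genes are transcribed within minutes of a receptor or stress signal, before any new protein has to be made, because the factors that switch them on (serum response factor with its ETS partners, CREB and MEF2) already sit in the resting cell. EGR proteins are zinc finger transcription factors and NR4A proteins are nuclear receptors that act without a known physiological ligand. Both are induced by the T cell receptor, EGR2, EGR3 and the NR4A genes being known for restraining activated T cells. DUSP1, DUSP2, DUSP5 and DUSP6 are phosphatases that remove phosphate from MAP kinases and so close the loop, DUSP5 and DUSP6 acting on ERK and DUSP1 and DUSP2 also on other MAP kinases.

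Library totals ran from 44414963 to 71787211 counts, and the 10 genes together took 0.256% to 1.48% of a library. All 10 passed the filter on low counts that left 14814 genes for testing. EGR3 was the sparsest, with 1 to 53 counts per library, while DUSP1 had 84410 to 649899 counts. On the length-scaled FPKM values deposited by the authors DUSP1 stood highest, with a median of 659 over the 15 libraries and a range of 353 to 3429. NR4A2 followed with 60.0 to 176 FPKM and DUSP2 with 15.6 to 95.1 FPKM, and the ranges of these 3 genes did not overlap except between NR4A2 and DUSP2. The other 7 genes lay between 0.00885 and 5.10 FPKM. The gene length behind these values can be read from the ratio of count to FPKM, and over 11992 genes it followed the RefSeq gene span, introns included (Spearman's rho 0.90 across genes, which are not independent replicates). For EGR2 it was 20.8 times that of DUSP1 and for NR4A1 45.3 times, against spans of 2.26 and 13.5 times in RefSeq. For NR4A3 it was 10.2 times and for DUSP5 3.28 times, against spans of 14.5 and 4.59 times. For EGR3 it was 0.472 times, against a span of 1.89 times. The FPKM order of the members therefore depends on the length assigned to each, introns included. What the rows of EGR2 and NR4A1 cover beyond the RefSeq gene was not tested, nor what that of EGR3 leaves out. The counts, CPM and fold changes of these genes share this limit. Those of EGR2 and NR4A1 may hold reads from outside the RefSeq gene, and those of EGR3 may miss reads.

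The subsets carried their markers. CD4 lay at 207 to 549 CPM (counts scaled to a common library total with TMM factors) in the CD4 libraries and at most at 1.68 CPM in the CD8 libraries, and CD8A at 665 to 861 CPM in the latter. Of 8 memory markers tested, 7 were higher in CD4 memory than in CD4 naive cells and 8 in CD8 memory than in CD8 naive cells. The first draw of RhDBCb stood apart from the other 3 draws. Its libraries held 11506 to 12277 genes with at least 10 counts, a range that overlaps with the 12043 to 12577 of the others. Its summed platelet markers (11 genes) were lowest, at 5.46 to 8.93 CPM, against 15.8 to 28.8 after treatment in this animal and 24.0 to 102 in RhM22. Summed monocyte markers (7 genes) lay at 1.55 to 11.2 CPM in that draw and at 7.87 to 46.6 CPM in the others. Over all libraries summed B cell markers (6 genes) reached 112 CPM, in CD8 naive cells, natural killer cell markers (5 genes) 76.2, erythroid markers (5 genes) 10.4 and neutrophil markers (7 genes) 5.99 CPM. RPS4Y1, a gene of the Y chromosome, lay at 200 to 273 CPM in RhDBCb and at most at 0.457 CPM in RhM22. Differences between the animals therefore cannot be told apart from a difference of sex. The part of all these differences in the results below was not tested.

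**Figure D1:**
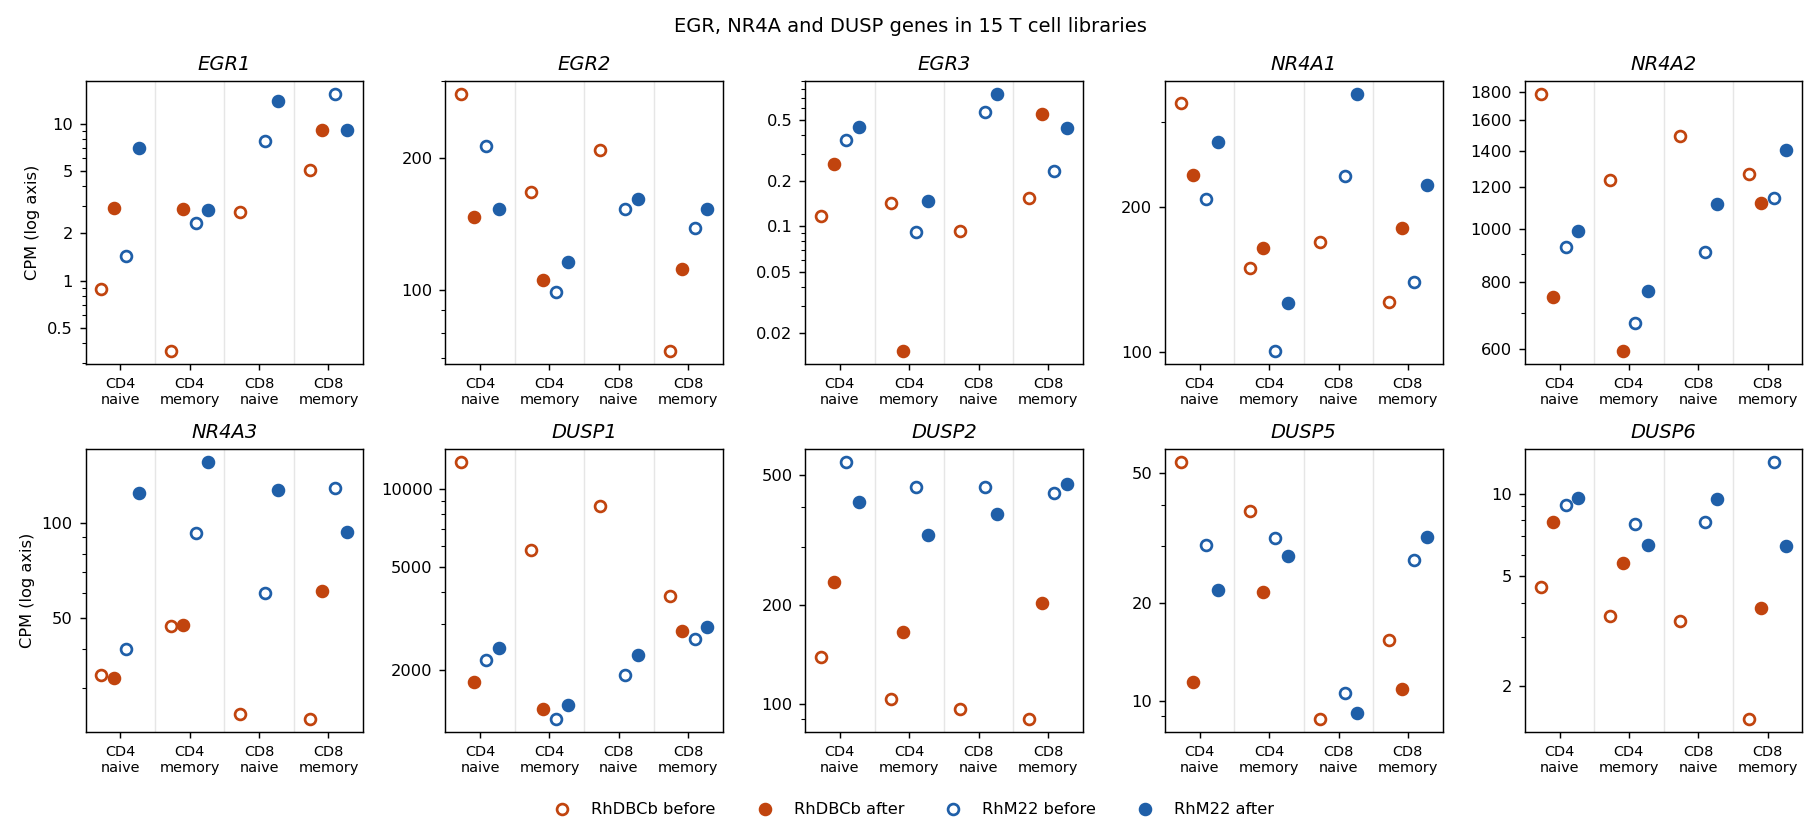
CPM (log axis) of the 10 genes in each library, by subset, with RhDBCb in orange and RhM22 in blue, open circles before and filled circles after treatment. The open orange circles of DUSP1, between 3855 and 12723 CPM, lie above every other library, those of DUSP2, between 89.7 and 139 CPM, below every other library.

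DUSP1 marked the first draw of RhDBCb. This phosphatase, which acts on p38, JNK and ERK, stood there at 12723 CPM (CD4 naive), 5813 (CD4 memory), 8608 (CD8 naive) and 3855 (CD8 memory). After treatment the same animal had 1785 CPM (CD4 naive), 1405 (CD4 memory) and 2823 (CD8 memory). All 4 libraries of the first draw lay above the 11 of the other draws, and in CD4 naive cells DUSP1 had 1.23% of all counts, the 6th most abundant gene. RhM22 had 2183, 1286, 1909 and 2625 CPM before treatment and 2427, 1460, 2281 and 2923 after it, in the order CD4 naive, CD4 memory, CD8 naive and CD8 memory. In RhM22 all 4 subsets thus stood at 1.11 to 1.19 times their level before treatment. In RhDBCb the level after treatment was 0.140 times that before for CD4 naive, 0.242 times for CD4 memory and 0.732 times for CD8 memory cells. As in any bulk sample, fewer cells carrying a transcript and less transcript per cell cannot be told apart.

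NR4A2, a nuclear receptor also known as NURR1, shared that pattern at a smaller size. In the first draw of RhDBCb it lay at 1785 CPM in CD4 naive, 1234 in CD4 memory, 1492 in CD8 naive and 1265 in CD8 memory cells. The draw after treatment had 750.3, 594 and 1118 CPM in CD4 naive, CD4 memory and CD8 memory cells. RhM22 had 928, 669, 907 and 1145 CPM before and 992, 768, 1114 and 1402 CPM after, in the same order of subsets as above. The first draw of RhDBCb was the highest of the 4 draws in CD4 naive, CD4 memory and CD8 naive cells, but in CD8 memory cells RhM22 after treatment was higher. Over the 15 libraries log2 CPM of DUSP1 and NR4A2 correlated at r = 0.89, a description of libraries that share animals and draws.

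**Figure D2:**
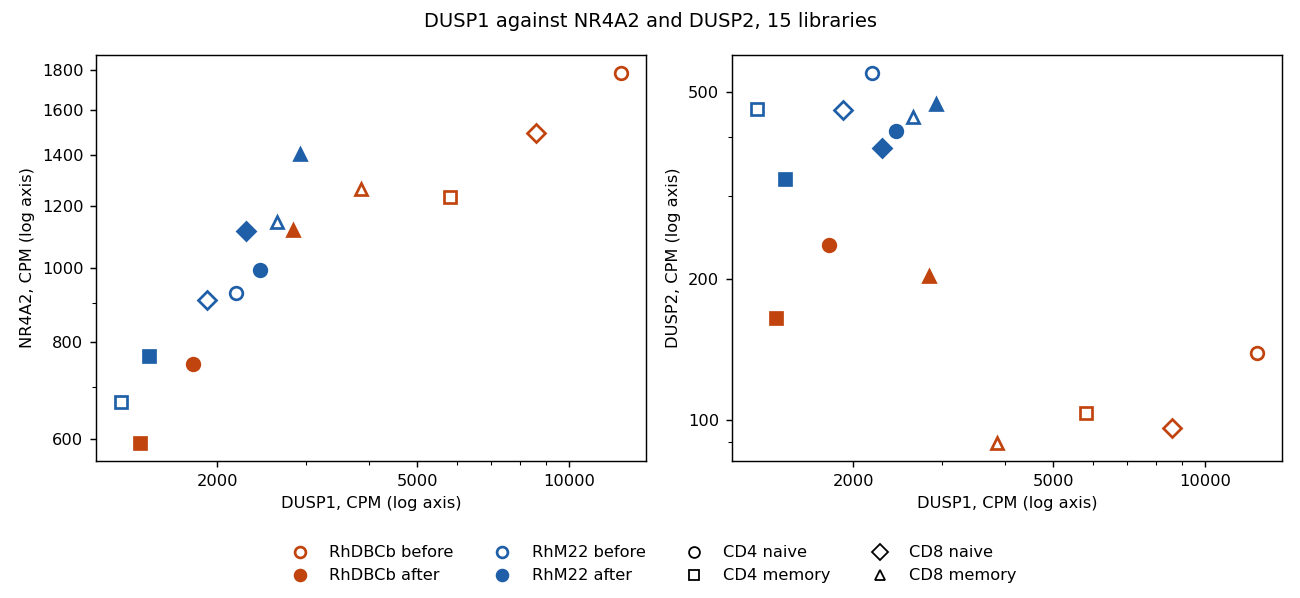
CPM of DUSP1 (x, log axis) against NR4A2 (left) and DUSP2 (right, both y axes log) in 15 libraries, with colour for the animal, filling for the time and shape for the subset. NR4A2 climbs with DUSP1 across all libraries (r = 0.89), while the DUSP2 points split by animal, 89.7 to 236 CPM in RhDBCb and 327 to 548 CPM in RhM22.

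DUSP2, a nuclear phosphatase of activated lymphocytes, went the opposite way. RhDBCb had 139, 104, 96.5 and 89.7 CPM in CD4 naive, CD4 memory, CD8 naive and CD8 memory cells before treatment. It had 236, 165 and 203 CPM in CD4 naive, CD4 memory and CD8 memory cells after it. RhM22 had 548, 459.6, 458 and 441 CPM before and 412, 327, 379.5 and 469.9 CPM after. The 2 animals did not overlap at either time, and each pair of RhDBCb was higher after treatment, at 1.59 to 2.26 times.

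The change in RhDBCb was tested between its 2 draws across subsets, with edgeR's quasi-likelihood test and p adjusted over all 14814 genes. DUSP1 fell by 1.94 in log2 units (SE 0.32, adjusted p from edgeR 0.00395) and NR4A2 fell by 0.85 (SE 0.17, 0.00906). DUSP5, a nuclear phosphatase of ERK, fell by 1.20 (SE 0.33, 0.0367). DUSP2 rose by 0.88 (SE 0.14, 0.00372) and EGR1, the founding EGR factor, rose by 1.75 (SE 0.45, 0.0286). All 5 kept 1 direction in 3 of 3 pairs. In all 2 members rose and 3 fell, of 10, where 10.1% of all genes were called (5.49% higher and 4.62% lower). The other 5 members did not pass, with DUSP6 at 0.83 (SE 0.34, adjusted p = 0.142), EGR2 at -0.47 (SE 0.27, 0.315), NR4A3 at 0.45 (SE 0.31, 0.405), EGR3 at 0.68 (SE 0.96, 0.716) and NR4A1 at 0.16 (SE 0.22, 0.711). As each time is 1 draw, this p measures spread among libraries. Fitted on the 7 libraries of RhDBCb alone no member was called (adjusted p = 0.12 to 0.174 for the 5), and 1 gene in all.

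Calls in RhDBCb rested unevenly on single libraries. DUSP1 and DUSP2 kept theirs in each of 15 fits that left out 1 library. NR4A2 lost its call when the CD4 naive cells of RhDBCb after treatment were left out (edgeR adjusted p = 0.0809). EGR1 lost it without either CD4 library of that animal before treatment (naive 0.0792, memory 0.0914) or after it (naive 0.104, memory 0.0833). DUSP5 kept it in 7 of 15 fits, its change being -0.77 without the CD4 naive before library of RhDBCb (0.116), 0.218 being the highest adjusted p, without the CD4 naive after library. EGR2 was called lower, at -0.80 (0.00542), once the first CD8 memory library of RhDBCb was left out, and DUSP6 higher, at 0.90 (0.0444), without the CD8 memory before library of RhM22.

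In RhM22 none of the 10 passed the test between its draws, where 0.0608% of all genes were called. At an unadjusted p under 0.05 there were 2 members, and 6.57% of all genes. The 2 were NR4A1 at 0.51 (SE 0.21, edgeR adjusted p = 0.64) and NR4A3 at 0.73 (SE 0.29, 0.62), and DESeq2 called 0 members. NR4A1 lay higher after treatment in 4 of 4 pairs of this animal and NR4A3 in 3 of 4. DUSP1 was at 0.19 (SE 0.27) and DUSP2 at -0.26 (SE 0.13).

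Whether the animals changed unequally was tested as the change in RhM22 minus that in RhDBCb. It was called for DUSP1 at 2.13 (log2; SE 0.41, edgeR adjusted p = 0.0143), for NR4A2 at 1.08 (SE 0.23, 0.0182) and for DUSP2 at -1.14 (SE 0.19, 0.00839). These are 3 of 10 members, where 4.58% of all genes were called (1.81% with the higher and 2.77% with the lower change in RhM22). The 7 others did not pass, DUSP5 at 1.09 (SE 0.44, 0.176), DUSP6 at -1.12 (SE 0.46, 0.183) and EGR1 at -1.07 (SE 0.61, 0.352) among them. The calls of DUSP1 and NR4A2 were lost when the CD4 naive cells of RhDBCb after treatment were left out (0.0686 and 0.0867) or the CD8 naive before library of RhM22 (0.0593 and 0.0751), and that of DUSP2 held in 15 of 15 fits. DESeq2 did not call DUSP1 here (DESeq2 adjusted p = 0.0796). With the first CD8 memory library of RhDBCb left out, 5 members were called, and 8.91% of all genes in place of 4.58%, with EGR2 at 0.79 (0.0283) and DUSP5 at 1.34 (0.0457) added.

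**Figure D3:**
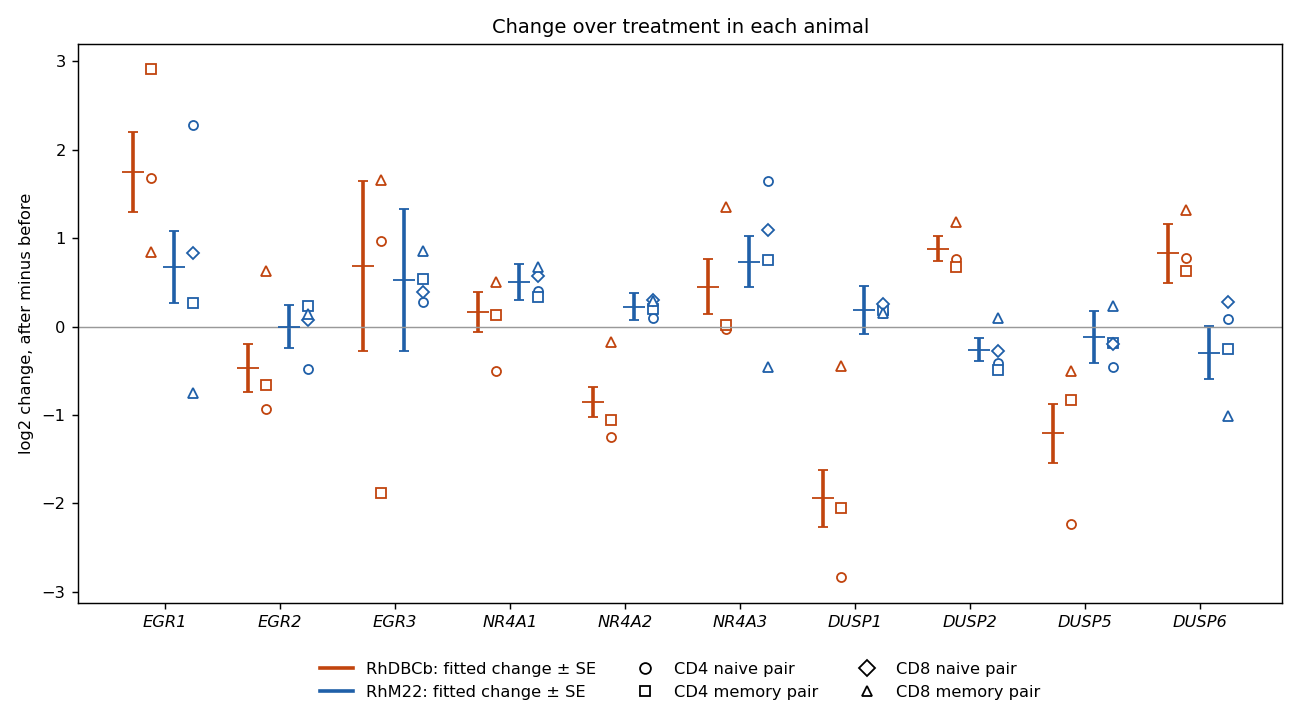
Log2 change, after minus before, of each gene in RhDBCb (orange) and RhM22 (blue), as the fitted change ± SE (bars) and as the single pairs (open symbols, 3 pairs in RhDBCb and 4 in RhM22). DUSP1, NR4A2 and DUSP5 lie below 0 and DUSP2 and EGR1 above 0 in all pairs of RhDBCb, and DUSP1 in RhM22 lies between 0.15 and 0.26.

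Over both animals and all subsets none of the 10 was called, where 0.00675% of all genes were. At an unadjusted p under 0.05 there were 4 of the 10, and 10.3% of all genes. EGR1 stood at 1.16 (SE 0.33, edgeR adjusted p = 0.334) with 6 of 7 pairs higher, NR4A3 at 0.60 (SE 0.21, 0.387) with 5 of 7, NR4A1 with 6 of 7 higher, and DUSP5 at -0.60 (SE 0.27, 0.464) with 1 of 7 higher. DESeq2 called 1 member, EGR1, at 1.17 (DESeq2 adjusted p = 0.0357). The share of all genes that DESeq2 called is not given here, so this call is not set against it. DUSP1 was at -0.72 (SE 0.37, edgeR adjusted p = 0.515) and NR4A2 at -0.25 (SE 0.19, 0.677), and both turned to 0.19 and 0.22 when the first draw of RhDBCb was left out, which leaves the change in RhM22. The members' median was 0.24, against 0.01 over all genes tested.

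Within single subsets after treatment no member and no gene was called (0% of genes in each subset). At an unadjusted p under 0.05 there were 2 members (CD4 naive), 1 (CD4 memory), 1 (CD8 naive) and 0 (CD8 memory). The share of all genes was 4.07%, 1.55%, 0.999% and 1.46% in the same order. DESeq2 called 0 members in each subset. EGR1 lay at 2.00 in CD4 naive cells (SE 0.60, edgeR adjusted p = 0.897) and in CD4 memory cells at 1.49 (SE 0.60, adjusted p = 1). DUSP5 in CD4 naive cells lay at -1.46 (SE 0.47, 0.897). A joint test of whether the subsets changed unequally called 0% of genes and no member. At an unadjusted p under 0.05 it had 0 members and 0.432% of all genes, and DESeq2 called 0 members.

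The calls between subsets are given by contrast, each beside the share of all genes called. NR4A1 was lower in CD4 memory than in CD4 naive cells, 1 of 10 members, where 11.5% of all genes were called (6.82% higher and 4.71% lower). DUSP5 was higher in CD8 memory than in CD8 naive cells, 1 of 10 (16.5% of all genes, 9.93% higher and 6.6% lower), and lower in CD8 naive than in CD4 naive cells, 1 of 10 (3.37%, 1.69% higher and 1.68% lower). EGR1 and NR4A2 were higher in CD8 memory than in CD4 memory cells, 2 of 10 (8.24%, 4.63% higher and 3.61% lower).

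EGR1 had the largest called difference of the 10 between CD8 and CD4 cells. In CD4 naive cells it lay at 0.886 and 2.90 CPM in RhDBCb and at 1.43 and 7.03 CPM in RhM22, before and after. In CD4 memory cells it lay at 0.354 and 2.87 CPM in RhDBCb and at 2.32 and 2.80 CPM in RhM22. CD8 naive cells had 2.74 CPM in RhDBCb before treatment and 7.75 and 13.9 CPM in RhM22. CD8 memory cells had 5.04 and 9.09 CPM in RhDBCb and 15.5 and 9.15 CPM in RhM22, all above every CD4 memory library. EGR1 was higher in CD8 memory than in CD4 memory cells by 2.50 (log2; SE 0.43, edgeR adjusted p = 0.00222), in 4 of 4 draws and in each of 15 fits that left out 1 library. Between the naive subsets it lay at 1.56 (SE 0.44, 0.0833), higher in CD8 in 3 of 3 draws. That difference passed with DESeq2 (1.58, DESeq2 adjusted p = 0.0121) and in edgeR without the CD4 naive after library of RhM22 (2.07, 0.0364). Summed natural killer cell markers (5 genes) lay at 24.1 to 76.2 CPM in CD8 memory and at 1.52 to 3.02 CPM in CD4 memory cells. The part of these markers in the calls of EGR1 and NR4A2 between the memory subsets was not tested.

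EGR2, the factor tied to anergy and to the restraint of T cells, ordered the libraries differently from EGR1, again as counted on a row much longer than its RefSeq gene. It lay at 147 to 281 CPM in CD4 naive, 99.2 to 167 in CD4 memory, 153 to 209 in CD8 naive and 72.5 to 153 in CD8 memory cells. It was lower in memory than in naive cells in 4 of 4 draws of CD4 and 3 of 3 of CD8 cells, though neither difference was called, at -0.69 (SE 0.24, edgeR adjusted p = 0.0865) and -0.44 (SE 0.27, 0.307). EGR3, its close relative, never exceeded 0.741 CPM. It lay at 0.0152 to 0.147 CPM in CD4 memory cells, below all CD8 memory libraries (0.153 to 0.551 CPM). These values rest on few reads, 1 to 10 counts in CD4 memory and 9 to 32 in CD8 memory libraries, which overlap. The fitted difference of 1.66 (SE 0.89, 0.314) did not pass.

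NR4A1, also known as NUR77 and used as a reporter of T cell receptor signalling, was higher in CD4 naive than in CD4 memory cells, as counted on a row much longer than its RefSeq gene. In CD4 naive cells it lay at 329 and 233 CPM in RhDBCb and 208 and 273 CPM in RhM22, before and after. CD4 memory cells had 149.6 and 164 CPM in RhDBCb and 100.2 and 126 CPM in RhM22. The CD4 subsets did not overlap, and the difference of -0.96 (SE 0.21, edgeR adjusted p = 0.00905) was called in the fit and in each of 15 fits that left out 1 library. CD8 naive cells had 169 CPM in RhDBCb before treatment and 231 and 344 CPM in RhM22. CD8 memory cells had 127 and 181 CPM in RhDBCb and 139.8 and 222 CPM in RhM22, which overlapped with the naive libraries. This difference lay at -0.60 (SE 0.23, 0.0888), lower in 3 of 3 draws. It passed without the CD4 naive before (-0.61, 0.0457) or the CD8 naive before library of RhDBCb (-0.85, 0.0232).

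NR4A2 was higher in CD8 memory than in CD4 memory cells by 0.67 (SE 0.15, edgeR adjusted p = 0.0136), in 4 of 4 draws and in 15 of 15 fits that left out 1 library. In CD4 memory cells it lay below CD4 naive cells in 4 of 4 draws, at -0.43 (SE 0.15, 0.0819). NR4A3, the third receptor, behaved otherwise. It lay at 23.9 to 60.8 CPM in RhDBCb and 39.8 to 156 CPM in RhM22, and CD4 memory cells exceeded CD4 naive cells in 4 of 4 draws at 0.61 (SE 0.28, 0.198). No contrast between subsets was called for NR4A3.

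DUSP5 was lowest in CD8 naive cells. It lay there at 8.81 CPM in RhDBCb and at 10.6 and 9.22 CPM in RhM22. CD4 naive cells had 54.2 and 11.5 CPM in RhDBCb and 30.1 and 21.9 CPM in RhM22. CD4 memory cells had 38.4 and 21.6 CPM in RhDBCb and 31.7 and 27.8 CPM in RhM22, and CD8 memory cells 15.5 and 10.9 CPM in RhDBCb and 27.1 and 31.9 CPM in RhM22. The 3 CD8 naive libraries were thus the lowest of the 15. The next lay close, at 10.9 CPM (CD8 memory) and 11.5 CPM (CD4 naive), in the RhDBCb draw that has no CD8 naive library. The CD8 naive libraries had the highest summed B cell markers (6 genes), at 67.0 to 112 CPM against 16.2 to 38.6 CPM in the other subsets, with MS4A1 at 0.106 to 1.71 CPM. The part of these markers in the result was not tested. DUSP5 was lower in CD8 naive than in CD4 naive cells by 1.75 (log2 fold change -1.75, SE 0.34, edgeR adjusted p = 0.00938) and higher in CD8 memory than in CD8 naive cells by 1.38 (SE 0.33, 0.0125), in 3 of 3 draws each. The first call was lost without the CD8 naive before library of RhDBCb (-1.60, 0.0727). The second was lost without that library (1.25, 0.0599), or without the RhM22 library of CD8 naive (1.40, 0.0561) or CD8 memory cells (1.06, 0.0527) after treatment.

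DUSP6, the cytoplasmic phosphatase of ERK, stayed between 1.51 and 13.1 CPM and was called in no contrast. It lay at 1.51 to 7.85 CPM in RhDBCb and 6.47 to 13.1 CPM in RhM22. DUSP2 was called in no contrast between subsets and lay at -0.38 (SE 0.13, edgeR adjusted p = 0.0776) for CD4 memory against CD4 naive cells, lower in 4 of 4 draws. For DUSP1 the CD4 memory cells lay below CD4 naive cells in 4 of 4 draws (-0.78, SE 0.27, 0.0842) and below CD8 memory cells in 3 of 4 (CD8 minus CD4 0.72, SE 0.27, 0.136). Without the first draw of RhDBCb both differences of DUSP1 passed, at -0.60 (0.00877) and 1.01 (0.000503).

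**Figure D4:**
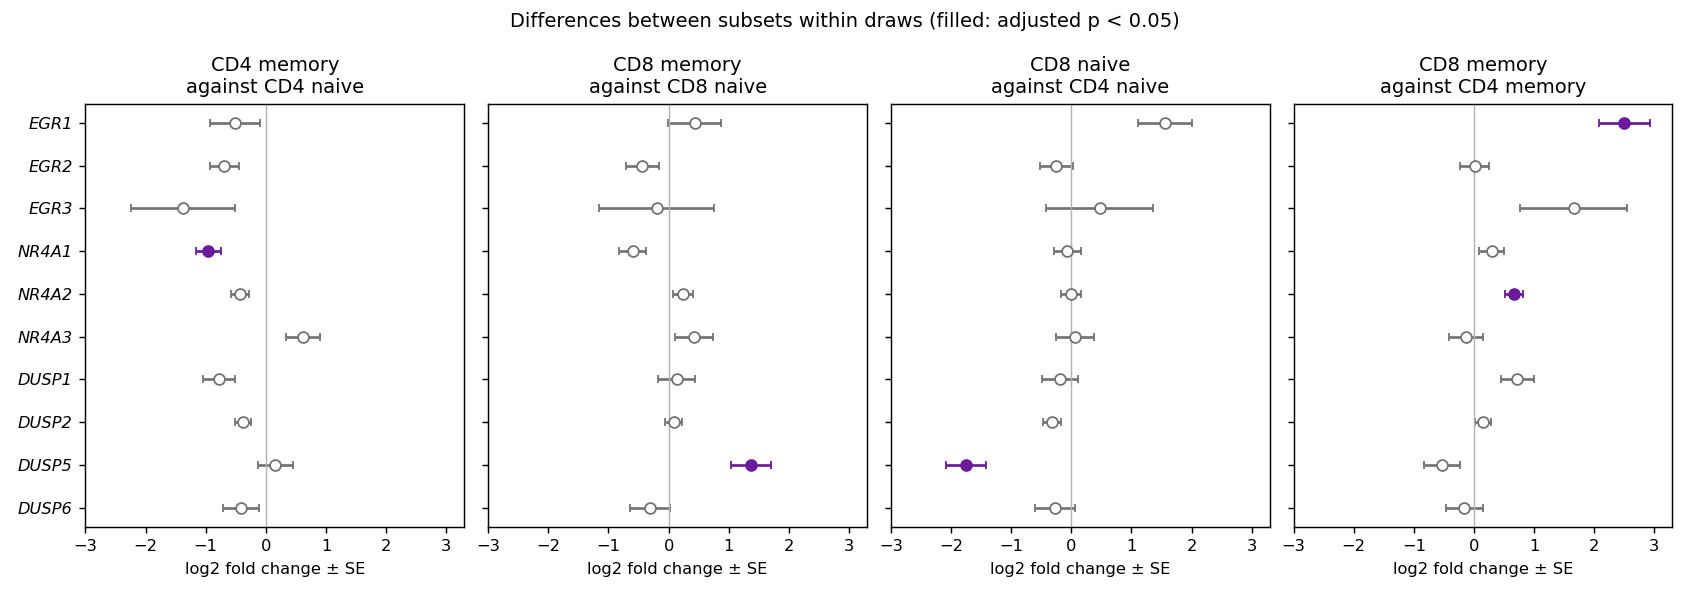
Log2 fold change ± SE of the 10 genes in 4 contrasts between subsets, fitted within draws, with filled points where edgeR's adjusted p was under 0.05. NR4A1 is lower in CD4 memory cells (-0.96), DUSP5 is lower in CD8 naive cells (-1.75 and, read from memory, 1.38), and EGR1 (2.50) and NR4A2 (0.67) are higher in CD8 memory than in CD4 memory cells.

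Without the first draw of RhDBCb, a fit chosen after its values were seen, CD4 memory cells were lower in 4 members (4.24% of all genes lower in that fit), NR4A1, DUSP1, EGR2 (-0.65, edgeR adjusted p = 0.0244) and NR4A2 (-0.37, 0.0424). CD8 memory cells then differed from CD8 naive cells in 2 (13.2% of all genes), with NR4A1 lower (-0.74, 0.0162), and from CD4 memory cells in 3 (9.57% of all genes). With the first CD8 memory library of RhDBCb left out, CD4 memory cells were lower than CD4 naive cells in 5 members, with 6.37% of all genes lower in place of 4.71%, DUSP1 (0.00117), DUSP2 (0.0385), EGR2 (0.00343) and NR4A2 (0.00783) joining NR4A1. In that fit DUSP1 was also called higher in CD8 memory than in CD4 memory cells (1.06, 0.000281) and than in CD8 naive cells (0.51, 0.0325), as was NR4A2 than in CD8 naive cells (0.43, 0.0235). DUSP2 was called lower in CD4 memory cells as well when the RhM22 library of CD8 memory cells after treatment was left out (0.0422).

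Whether memory and naive cells differed unequally in the CD4 and CD8 lineages was tested as the CD8 difference minus the CD4 difference, a comparison added after the values were seen. None of the 10 was called, where 0.0878% of all genes were (0.0675% higher and 0.0203% lower), and DESeq2 called 0 members. At an unadjusted p under 0.05 there were 4 members, and 7.92% of all genes. The 4 were DUSP5 at 1.22 (SE 0.43, edgeR adjusted p = 0.477), DUSP1 at 0.91 (SE 0.40, 0.601), NR4A2 at 0.67 (SE 0.23, 0.431) and DUSP2 at 0.46 (SE 0.19, 0.569). With the first CD8 memory library of RhDBCb left out, DUSP1 (1.26, 0.0165) and NR4A2 (0.86, 0.0301) were called, and 0.285% of all genes.

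Other genes of the same pathways were counted from lists, and each count stands against the share of all genes called in that contrast. Of 5 further MAP kinase phosphatases tested (6 listed), 2 were higher in CD4 memory than in CD4 naive cells, DUSP16, which acts on JNK and p38, at 1.78 (SE 0.25, edgeR adjusted p = 0.000535) and DUSP4 at 1.10 (SE 0.19, 0.00184), and none was lower (median 0.39 against -0.02 over all genes, of which 6.82% were higher). In CD8 memory against CD8 naive cells 3 of 5 were higher and none lower (median 1.15 against 0.03, with 9.93% of all genes higher), with DUSP4 at 1.20 (SE 0.21, 0.00153). DUSP1, DUSP2 and DUSP6 were called in neither of these contrasts. In RhDBCb DUSP10 fell by 1.10 (SE 0.18, 0.00364) and DUSP4 fell by 0.89 (SE 0.21, 0.0177), 2 of 5, with a median of -0.25, where 4.62% of all genes fell.

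Among 22 other immediate early genes tested (24 listed), 7 were lower and none higher in CD4 memory than in CD4 naive cells (median -0.40), where 4.71% of all genes were lower and 6.82% higher. SGK1, a serum- and glucocorticoid-induced kinase, stood at -1.56 (SE 0.23, edgeR adjusted p = 0.000799) and JUNB, an AP-1 subunit, at -0.70 (SE 0.15, 0.00744). In CD8 memory against CD8 naive cells 5 were higher and 2 lower (median 0.06, over all genes 9.93% higher and 6.6% lower), with FOSL2, another AP-1 subunit, at 0.79 (SE 0.14, 0.00163) and ATF3, a stress-induced factor, at 1.83 (SE 0.33, 0.00199). CD8 memory exceeded CD4 memory cells in 4 and lay below in none (median 0.39, over all genes 4.63% higher and 3.61% lower), and the naive subsets differed in 0 of 22. In RhDBCb 6 fell and none rose (median -0.26, over all genes 4.62% lower and 5.49% higher), with JUN, the partner of FOS in AP-1, at -2.13 (SE 0.29, 0.00136). In the test between the animals 3 changed more upward in RhM22 than in RhDBCb (median 0.51), where 1.81% of all genes did. FOS lay at 5149 to 13066 CPM in the first draw of RhDBCb and at 1987 to 4101 CPM in the other 3 draws.

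Of 13 transcription factors that act on early response promoters 2 rose in RhDBCb, serum response factor (SRF) by 1.60 (SE 0.19, edgeR adjusted p = 0.000685) and CREM, a cAMP-responsive factor, by 0.61 (SE 0.15, 0.02), and none fell (median 0.06), where 5.49% of all genes rose and 4.62% fell. Their change differed between the animals, SRF at -1.68 (SE 0.25, 0.0043) and CREM at -0.80 (SE 0.20, 0.0356). Of 15 genes of the Ras-ERK cascade 1 rose and 1 fell in RhDBCb, the latter being NRAS at -0.66 (SE 0.17, 0.0311), a share close to that of all genes (5.49% rose and 4.62% fell). In CD8 memory against CD4 memory cells 2 of 15 were higher and 1 lower (4.63% and 3.61% of all genes), the latter being MAPK3, which encodes ERK1 (-0.85, SE 0.25, 0.0481).

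PHLDA1, an ERK-induced gene, was higher in memory cells of CD4 (2.53, SE 0.33, edgeR adjusted p = 0.000321) and CD8 lineage (3.03, SE 0.39, 0.000191), 1 and 2 of 10 tested genes of its list (13 listed) being higher and none lower, against 6.82% and 9.93% of all genes higher. It fell by 1.40 in RhDBCb (SE 0.36, 0.0275), where 1 of 10 also rose. Of 11 EGR co-repressors and anergy targets tested (12 listed) 3 rose and 1 fell in RhDBCb (5.49% and 4.62% of all genes), NDRG1 rising by 1.44 (SE 0.20, 0.0014), diacylglycerol kinase DGKA by 0.95 (SE 0.13, 0.00181) and the ubiquitin ligase CBLB falling (-0.91, SE 0.20, 0.0151). Of 12 genes linked to NR4A in exhaustion and tolerance 4 were higher in CD4 memory than in CD4 naive cells (median 1.13, 6.82% of all genes higher). In CD8 memory against CD8 naive cells 5 were higher and 1 lower (median 1.53, 9.93% and 6.6% of all genes). PDCD1, the receptor PD-1, stood at 2.00 (SE 0.30, 0.000854) and 2.56 (SE 0.35, 0.000279). Of 14 T cell receptor activation genes tested (15 listed) 1 rose and 1 fell in RhDBCb (5.49% and 4.62% of all genes), with CD69 at -1.25 (SE 0.35, 0.0377). Over both animals no gene of these 8 lists was called.

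The genes whose level was most like that of a member were sought among 8281 genes with a symbol and a mean of at least 5 CPM, by Pearson's r of log2 CPM over the 15 libraries. For DUSP1 they were FOS (r = 0.98), LRRC57 (0.96) and ALG11 (0.96). For NR4A1 they were APBB1 (0.93), MOCS2 (0.88) and SFXN4 (0.86), and for EGR1 they included PPP1R13B (0.91) and STAT6 (0.89). Libraries of 1 draw are not independent, so these values describe the libraries. Among members NR4A2 was most like DUSP1, whereas DUSP1 and DUSP2 stood at r = -0.64.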

How the data were processed

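Polyadenylated RNA of blood T cell subsets was measured in 15 libraries, made with an RNeasy Micro kit and SMART-Seq v4 per the labels' protocols. The authors deposited expected counts per gene, not scaled, and FPKM per gene, with 1 column per library in each table. RSEM 1.3.3, STAR 2.7.6a and cutadapt 1.18 are listed, with the builds rheMac10 and Mmul_10, per the submitters' processing notes. The origin of the gene length and library factor behind the FPKM is not given in the sources used here. FPKM served only to set levels of different genes side by side.

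Expected counts were rounded (at most 26.1 counts per library), filtered with filterByExpr (minimum count 10, groups of subset and time) and scaled by TMM. CPM is from TMM-scaled totals, and log2 CPM used a prior count of 2. Tests were edgeR's quasi-likelihood F test with Benjamini-Hochberg adjustment over 14814 genes, a call being an adjusted p under 0.05, and SE the absolute log2 fold change over the square root of F. All 15 libraries shared 1 spread. Treatment over all subsets had subset and animal in the model, single subsets 8 groups and animal, and all other contrasts the 4 draws and subset. Fits were tested on simulated counts, drawn independently with 1 spread for all genes and no animal effect. Such counts cannot show how p behaves where libraries of 1 animal vary together. Alternatives were RLE factors, DESeq2, no filter, no block, other models and leaving out each library.

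Pairing comes from the animal names in the labels. Deviations from group means of libraries of the same animal correlated at 0.195 to 0.501 over 42 pairs. In groups with 1 library per animal the deviations of the animals mirror each other. Each value is therefore counted once in each animal, and the pairs are not independent. Whether libraries of a draw differ by more than technical spread is not stated, so p measures spread among these libraries. PCR copies cannot be told from molecules.

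Members, gene lists, markers and tests were chosen with earlier results of these data known. All 10 members are named. From each list up to 2 called genes per direction with the smallest p could be named, and some genes that the rules took are not reported here. Symbols came from the deposited row names for 23407 genes and from a table of names for 933. Positions and sequences are not used here. Gene spans came from a RefSeq table of another assembly. DESeq2 was version 1.42.0, limma 3.58.1 and edgeR 4.0.16, under R 4.3.3.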

Additional observations from a re-analysis of the deposited data

Results flagged for a closer look

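For 3 members the change over treatment differed between the animals by the test of that difference (RhM22 minus RhDBCb, edgeR's quasi-likelihood test, log2). The value was 2.13 for DUSP1 (adjusted p = 0.0143), 1.08 for NR4A2 (0.0182) and -1.14 for DUSP2 (0.00839). The calls of DUSP1 and NR4A2 were lost when the CD4 naive cells of RhDBCb after treatment were left out (0.0686 and 0.0867) or the CD8 naive cells of RhM22 before it (0.0593 and 0.0751), and DESeq2 did not call DUSP1 (0.0796). DUSP1 went down in 3 of 3 pairs of RhDBCb and up in 4 of 4 pairs of RhM22. The groups of subset and time hold 1 or 2 libraries, too few for a search for single libraries far from their group.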

How the results depend on the processing

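RLE factors and no filter on low counts changed no call of a member. DESeq2 called 1 member over all subsets, 3 for CD4 memory against CD4 naive cells (EGR2 and DUSP2 added) and 2 for CD8 naive against CD4 naive cells, and no longer called the difference between animals for DUSP1 (adjusted p = 0.0796). Without the replicate block of draw or animal, a fit that ignores the pairing, 0 members were called in each of the 4 contrasts between subsets, with edgeR adjusted p = 0.0533 for NR4A1 in CD4 cells, DUSP2 in CD8 naive cells after treatment lay at 0.45, and DUSP1 for CD8 memory against CD8 naive cells at -0.48. From before libraries only, 0 members were called in 3 of these contrasts and 1 for CD8 memory against CD4 memory cells. Signs then turned for DUSP5 in CD4 memory against naive (-0.26), DUSP1 (-0.20) and DUSP2 (-0.069) in CD8 memory against naive, and EGR2 (-0.28) and DUSP2 (-0.12) in CD8 against CD4 memory cells. Without the first draw of RhDBCb 4 members were called for CD4 and 2 for CD8 memory against naive cells, and signs turned over all subsets for NR4A2 (0.22), DUSP1 (0.19), DUSP2 (-0.27) and DUSP6 (-0.26), and between naive subsets for NR4A1 (0.35). With the libraries of RhDBCb alone 0 members were called for its change. The cause of these shifts was not tested. The fits on part of the libraries also had fewer of them. The share of all genes called is not given here for these fits, so their member counts are not set against it.

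Leaving out each library in turn gave 1 to 5 members for CD4 and 0 to 3 for CD8 memory against naive cells, 0 to 2 between naive subsets, 2 to 6 for RhDBCb, 1 to 5 for the difference between animals and 0 to 2 for the CD8 minus CD4 difference. After treatment in CD4 naive cells NR4A1 ran from -0.39 to 0.29 and DUSP2 from -0.33 to 0.68. In CD4 memory cells EGR2 ran from -0.64 to 0.22 and DUSP2 from -0.32 to 0.49. In CD8 memory cells the range was -0.59 to 0.67 for EGR1, -0.13 to 0.96 for EGR2, -0.18 to 1.11 for NR4A3, -0.83 to 0.51 for DUSP5 and -1.01 to 1.34 for DUSP6. Between naive subsets it was -0.21 to 0.21 for NR4A1, -0.062 to 0.17 for NR4A2 and -0.31 to 0.15 for DUSP1. DUSP6 ran from -0.46 to 0.16 in RhM22 and from -0.39 to 0.39 for the CD8 minus CD4 difference. None of these was called in the fit to all libraries, and a sign change smaller than the SE was not counted. Treatment in CD8 naive cells could not be fitted without its only after library. Where 1 library of a group remained, it was taken to vary like the others. The member counts above are not set against the share of all genes called in each fit. EGR3 had at most 53 counts, so its values rest on few reads. Whether reads are missed because of its short assigned length was not tested.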

Other observations

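With draw and subset taken out of log2 CPM, which leaves 8 residual degrees of freedom in 15 libraries, DUSP1 and NR4A2 still varied together (r = 0.96), and EGR2 varied with both (0.91 with DUSP1 and 0.92 with NR4A2). DUSP1 and DUSP2, at -0.64 over the libraries as they stand, had r = 0.59 on these residuals. DUSP5 varied with NR4A1 (0.82). EGR1 had negative values with EGR2 (-0.58), NR4A2 (-0.50) and DUSP2 (-0.65). On these residuals the genes most like DUSP1 included LRIF1 (0.98) and FOS (0.98). For NR4A1 they were MTA3 (0.96), NFATC2IP (0.95) and TCP11L2 (0.95), and for EGR1 MRPS35 (0.94) and the mitochondrially encoded ATP6 (0.94) and ND5 (0.91). These are descriptions of 15 libraries from 4 draws.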
